A study of Mus musculus with 16 samples.

Results

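The Wnt signalling genes examined here were 46 named genes, out of 21887 protein-coding mouse genes. They comprised 19 Wnt ligands, 13 receptors (10 Frizzled and 3 Lgr), 11 secreted modulators (4 R-spondins, 4 Sfrp and 3 Dkk proteins) and 3 nuclear or feedback genes (Axin2, Lef1 and Tcf7). Membership was set by gene name, with no measured value used as a criterion, although earlier results of these data were known when the genes were chosen. All 46 symbols matched a gene record. H3K4me3, a histone mark of active and poised promoters, and H3K27me3, the mark laid down by Polycomb complexes over repressed genes, had been profiled by ChIP-seq in muscle stem cells of C57BL/6 mice. The cells were activated (ASC) or quiescent (QSC); the labels used here do not say how they were isolated or activated, nor the age and number of mice. Each mark in each state had 2 immunoprecipitated samples and 2 input samples, 16 samples in all.

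Wnt proteins are secreted, lipid-modified ligands that bind Frizzled receptors on the cell surface. In the canonical branch, binding stabilises beta-catenin, which enters the nucleus and acts with the DNA-binding proteins Lef1 and Tcf7; other branches control cell polarity and movement. R-spondins bind Lgr receptors and raise the amount of Frizzled on the membrane, whereas Sfrp proteins bind and sequester Wnts and Dkk1 blocks the Lrp co-receptors. In skeletal muscle, satellite cells are the resident stem cells, and Wnt signals are known to act on their polarity, division and differentiation during regeneration.

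The authors deposited 8 peak lists, with narrow and broad peaks listed separately for every mark and state. Replicates shared a list, so each state is 1 pooled list for each mark, and no difference between ASC and QSC below has a replicate check or a p-value. The annotation gave both ends of each gene record but no strand for every gene, so windows were placed 1 kb either side of both ends. An H3K4me3 call needed at least 1 bp of a narrow peak inside a window. An H3K27me3 call needed at least 500 bp of a window to lie in peaks. The lists differed in extent: the H3K4me3 narrow lists held 15869 peaks over 35.4 Mb in ASC and 14354 over 24.4 Mb in QSC, and the H3K27me3 narrow lists covered 88.4 and 53.8 Mb. The H3K27me3 broad lists covered 517 Mb in ASC and 455 Mb in QSC, with 8.51% and 3.85% of their peaks at a q-value of at most 0.05. Read depth per library is unknown from these lists. All 8 satellite cell markers, Pax7 and Myf5 among them, had an H3K4me3 call in both states; of markers of other cell types, 2 of 5 endothelial genes were called in each state, as were 1 and 0 of 5 immune genes in ASC and QSC, 2 and 1 of 5 fibro-adipogenic genes, 2 and 3 of 5 pericyte and smooth muscle genes, and 1 of 4 Schwann and glial genes in each. The part of such cells in the calls below was not tested.

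Most ligands and secreted modulators had an H3K27me3 broad call and most receptors an H3K4me3 narrow call, with many genes called for both; differences between the roles were not tested. An H3K4me3 narrow peak was called at 29 of the 46 genes in ASC and 27 in QSC, against 55.7% and 53% of all protein-coding genes. By role, the calls numbered 10 of 19 ligands in each state, 12 of 13 receptors in ASC and 10 in QSC, 5 of 11 secreted modulators in each state, and Lef1 and Tcf7 in each. H3K27me3 broad peaks were called at 39 of the 46 in ASC and 34 in QSC, against 34.3% and 30.5% of all genes. Those calls took in 18 of 19 ligands in each state, 8 of 13 receptors in ASC and 5 in QSC, 11 of 11 modulators in ASC and 10 in QSC, and 2 and 1 of the 3 nuclear or feedback genes. In the narrow H3K27me3 lists, 31 of the 46 were called in ASC and 20 in QSC, against 15.2% and 9.38% of all genes.

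**Figure D1:**
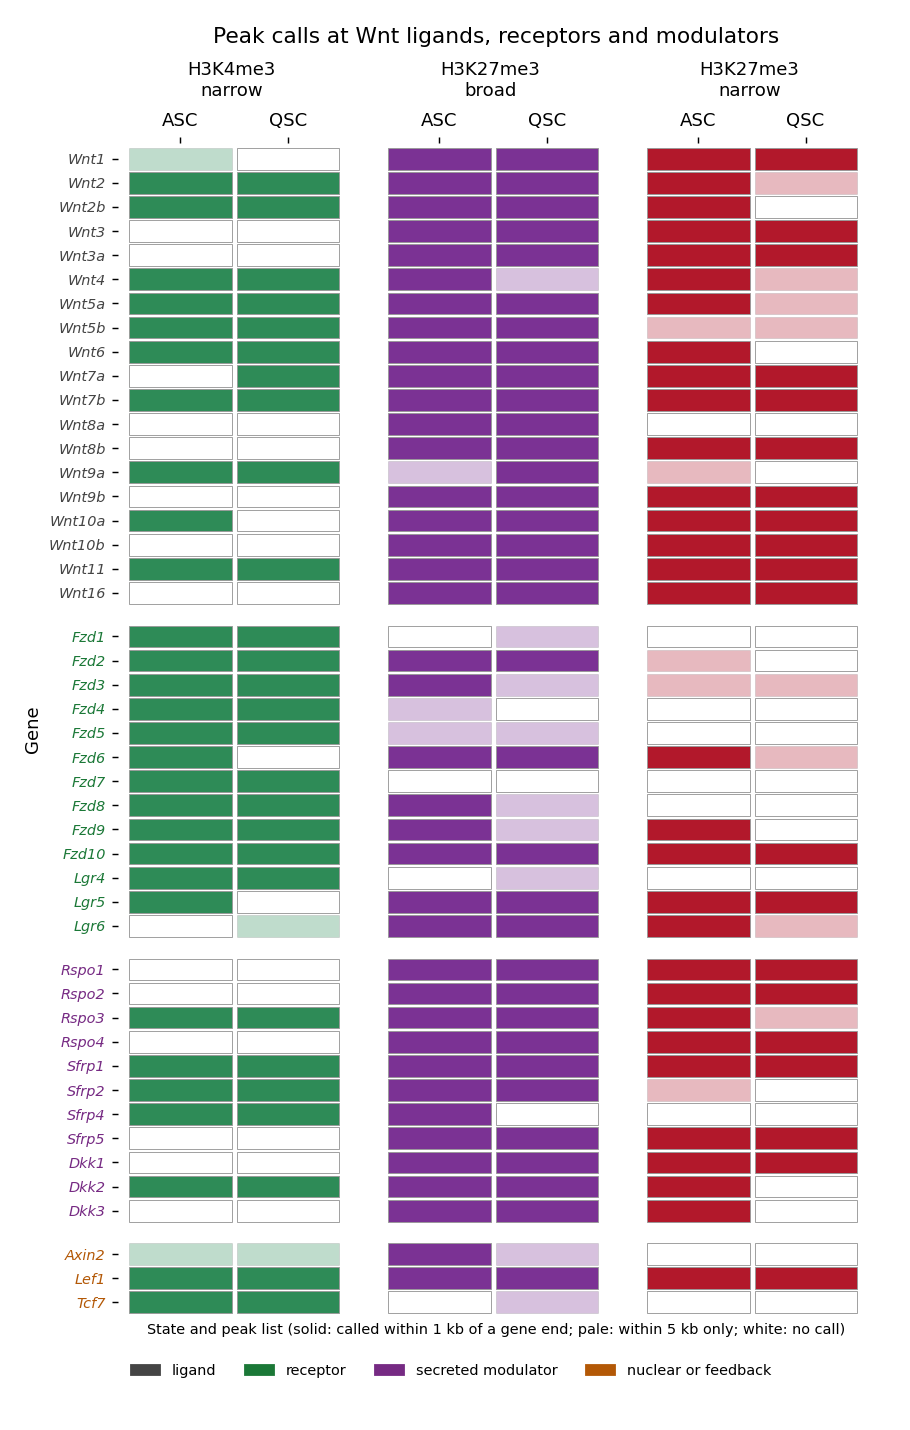
Peak calls at each of the 46 genes (rows, grouped by role) in the H3K4me3 narrow, H3K27me3 broad and H3K27me3 narrow lists (ASC left of QSC in each pair); solid cells are calls within 1 kb of a gene end, pale cells within 5 kb only, white cells no call. The ligand rows are nearly filled for H3K27me3, with 18 of 19 called by broad peaks in each state, while 12 of 13 receptor rows are filled for H3K4me3 in ASC.

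Calls that differed between the states were few for H3K4me3. Wnt10a, Fzd6 and Lgr5 were called in ASC only, 3 of 46 against 3.54% of all genes, and Wnt7a in QSC only, 1 of 46 against 0.777%. By broad H3K27me3 peaks, Wnt4, Fzd3, Fzd8, Fzd9, Sfrp4 and Axin2 were called in ASC only (6 of 46, against 7.5% of all genes) and Wnt9a in QSC only (1 of 46, against 3.68%). By narrow H3K27me3 peaks, 11 genes were called in ASC only, against 6.75% of all genes, and 0 in QSC only, against 0.886%. A nearer base is the 8309 genes with a broad H3K27me3 call in either state. Of those, 1477 were called by narrow peaks in ASC only and 194 in QSC only. With windows of 5 kb, H3K4me3 was called at 31 genes in ASC and 29 in QSC (60.7% and 58.1% of all genes). At that width Wnt1 joined the ASC-only genes, 4 in all against 3.4%, and Lgr6 joined Wnt7a as QSC-only, 2 in all against 0.804%. Broad H3K27me3 at 5 kb was called at 42 genes in ASC and 43 in QSC (58.9% and 58.3% of all genes), with 2 genes in ASC only (7.18%) and 3 in QSC only (6.6%). Narrow H3K27me3 at 5 kb was called at 36 and 28 genes (29.3% and 21.8%), with 8 in ASC only (9.82%) and 0 in QSC only (2.25%).

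The single-state H3K4me3 counts were the same when peaks with a −log10 q under 5 were dropped and when both lists held equal numbers of peaks, but not when both had equal extent. When the ASC list was cut to its strongest peaks so that both lists covered the same number of bases, 8 members were called in ASC, 0 of them in ASC only, and 19 were called in QSC only. The share of all protein-coding genes under this cut was not computed, so these counts cannot be read as particular to the members. The ligand and modulator peaks were among the weaker ones of their lists: at the 10 ligands called in ASC the highest fold over background (the authors' value for each peak) had a median of 8.58, and 0 of 10 lay above the median of all ASC peaks, 16.3. In QSC the 10 ligands had a median of 6.34, with 1 of 10 above the list median of 10.4. Receptor peaks were stronger within the same lists, with a median of 18.2 over 12 genes in ASC (7 above the list median) and 13.8 over 10 genes in QSC (7 above it). The 5 modulators had medians of 7.77 in ASC and 5.46 in QSC, with 0 of 5 above the list median in either state. Folds from different lists are given side by side and show no change between the states. In the broad H3K4me3 lists, 39 members were called in each state, against 62.4% of all genes in ASC and 71.1% in QSC. By role these were 18 of 19 ligands in ASC and 15 in QSC, 12 of 13 receptors in each state, 7 and 9 of 11 modulators, and 2 and 3 of the nuclear or feedback genes, so in ASC ligands were called by broad peaks about as often as receptors. Wnt3, Wnt8a, Wnt9b and Wnt16 were called there in ASC only, 4 of 46 against 2.47% of all genes, and Wnt8b, Rspo2, Dkk1 and Axin2 in QSC only, 4 of 46 against 11.2%; the 4 genes called in a single state by narrow peaks had broad peaks in both.

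Among the ligands, 9 had H3K27me3 broad calls and no H3K4me3 call in ASC (Wnt1, Wnt3, Wnt3a, Wnt7a, Wnt8a, Wnt8b, Wnt9b, Wnt10b and Wnt16), and 9 in QSC, with Wnt10a in the place of Wnt7a. Wnt1, Wnt3 and Wnt3a are canonical ligands that pattern the early embryo, and Wnt8b is a ligand of the developing forebrain. Wnt8a had broad peaks over 1684 bp of its better-covered window in ASC and 2001 bp in QSC, the full width, and no narrow H3K27me3 peak within 5 kb in either state. The other 9 ligands in ASC (Wnt2, Wnt2b, Wnt4, Wnt5a, Wnt5b, Wnt6, Wnt7b, Wnt10a and Wnt11) carried both marks at the same end; Wnt5a and Wnt11 are best known for signalling outside the canonical branch. In QSC both marks were called at the same end at 8 ligands. At Wnt2, Wnt2b, Wnt5b and Wnt6 the QSC broad H3K27me3 peaks there had a −log10 q under 1.3. Narrow H3K27me3 peaks covered 0 bp of those windows in QSC. At Wnt6 the marks shared a window without overlap: broad H3K27me3 peaks covered 0 bp of its 718 bp H3K4me3 domain in QSC. Wnt9a was the only ligand without a broad H3K27me3 call in ASC: broad peaks covered 221 bp of its better window there and 979 bp in QSC.

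Wnt7a, a ligand known in mice to act through Fzd7 on the expansion of satellite stem cells, was the gene with H3K4me3 in QSC only. Its QSC peak was short and weak: 657 bp at chr6:91410777-91411433, with a fold of 3.99 and a −log10 q of 5.14, which lies above 5.59% of peaks in its list. The nearest ASC narrow peak lay 28821 bp from a gene end, although the ASC broad list held a peak of 2234 bp with a fold of 2.05 at the start. H3K27me3 covered the same start in both states, as a narrow peak of 9286 bp with a fold of 11.2 in ASC and one of 7225 bp with a fold of 7.46 in QSC. The promoter is printed because the call turns on it: the RefSeq GRCm38.p6 promoter table gives chr6:91411304-91411603 on the minus strand, of which 0 bases lay in an H3K4me3 narrow peak in ASC and 130 in QSC, while 300 of 300 bases lay in H3K27me3 narrow peaks in both states. Here and below the sequence runs 5′ to 3′ from 250 bases before to 50 bases after the start, and capitals mark each CpG.
Wnt7a: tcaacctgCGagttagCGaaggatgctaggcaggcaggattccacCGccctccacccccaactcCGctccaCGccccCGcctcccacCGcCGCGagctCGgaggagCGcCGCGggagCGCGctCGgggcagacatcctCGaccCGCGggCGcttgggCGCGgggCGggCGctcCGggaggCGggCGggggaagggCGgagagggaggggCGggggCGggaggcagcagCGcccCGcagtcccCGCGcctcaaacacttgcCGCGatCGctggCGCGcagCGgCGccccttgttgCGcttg

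Wnt4 was the ligand with H3K27me3 called in ASC only by broad and by narrow peaks. In mice, Wnt4 is made in muscle fibres and is known to act on satellite cell quiescence. A broad peak of 19080 bp crossed its start in ASC (chr4:137266592-137285671, fold 2.85, −log10 q 3.40), whereas the QSC list left the start open, with peaks of 4958 bp and 5554 bp whose nearest edges lay 1320 and 2371 bp away. Broad peaks covered 2001 bp of the window in ASC and 0 bp in QSC, and narrow peaks 1219 bp in ASC and 0 bp in QSC. H3K4me3 was called there in both states, as a domain of 2356 bp in ASC and 2553 bp in QSC, so the gene was called for both marks in ASC and for H3K4me3 alone in QSC. The table's promoter, chr4:137277385-137277684 on the plus strand, lay wholly in the ASC broad peak (300 bases) and outside the QSC broad peaks (0 bases). Narrow H3K27me3 peaks covered 0 of its bases in both states, the ASC narrow peaks lying elsewhere in the window.
Wnt4: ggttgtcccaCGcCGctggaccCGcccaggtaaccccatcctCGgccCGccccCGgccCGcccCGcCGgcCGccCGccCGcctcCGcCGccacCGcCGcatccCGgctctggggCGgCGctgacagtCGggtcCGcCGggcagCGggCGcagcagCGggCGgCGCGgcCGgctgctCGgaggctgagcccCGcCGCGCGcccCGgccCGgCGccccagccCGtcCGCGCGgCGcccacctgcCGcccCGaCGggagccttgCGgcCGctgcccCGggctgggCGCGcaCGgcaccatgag

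Wnt10a, a canonical ligand of teeth, hair and skin, had an H3K4me3 peak of 919 bp in ASC (chr1:74791699-74792617, fold 8.04, −log10 q 25.9) and a second of 478 bp at the other end of its record. In QSC the nearest narrow peak lay 7186 bp from a gene end, and a QSC broad-list peak of 2023 bp lay over the end with the 478 bp peak. H3K27me3 broad peaks covered 2001 bp of its better window in both states. Wnt6, which lies 6696 bp from Wnt10a, had its H3K4me3 call at the 3′ end of the record in both states (fold 8.31 in ASC and 5.81 in QSC). The start of Wnt6 in the promoter table lies inside the record. A window of 1 kb either side of that start also held an H3K4me3 narrow peak in both states. A single broad H3K27me3 peak of 28591 bp in ASC covered the whole Wnt10a record and the 3′ end of Wnt6. Wnt1 had no H3K4me3 call at 1 kb, yet the ASC list held a narrow peak of 607 bp (fold 4.70) at 1054 bp from its nearest end, while the nearest QSC peak was 14132 bp away.

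Narrow H3K27me3 peaks were called at 16 ligands in ASC and 11 in QSC. The 5 called in ASC only were Wnt2, Wnt2b, Wnt4, Wnt5a and Wnt6. At Wnt2b, a ligand related to Wnt2, narrow peaks filled the window in ASC (2001 bp) and covered 0 bp in QSC; at Wnt6 the values were 1601 bp and 0 bp. Wnt5a had 1521 bp in ASC and 163 bp in QSC, and Wnt2 had 769 bp and 0 bp. Of these 5, 4 also had a broad H3K27me3 call in both states, and Wnt4 alone had one in ASC only.

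Several ligand genes are neighbours and share peaks, so their calls are not separate observations. Wnt9b and Wnt3 overlap at their ends on chromosome 11, and single H3K27me3 peaks crossed that overlap: broad peaks of 85463 bp in ASC and 53232 bp in QSC, and narrow peaks of 8168 and 8086 bp. Wnt10b and Wnt1, 11650 bp apart on chromosome 15, shared broad peaks of 47322 bp in ASC and 43036 bp in QSC. Wnt3a and Wnt9a lie 16097 bp apart on the same chromosome as Wnt3 but differed in their marks: Wnt3a had an H3K27me3 call and no H3K4me3 narrow call in both states, and Wnt9a had an H3K4me3 narrow call in both.

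**Figure D2:**
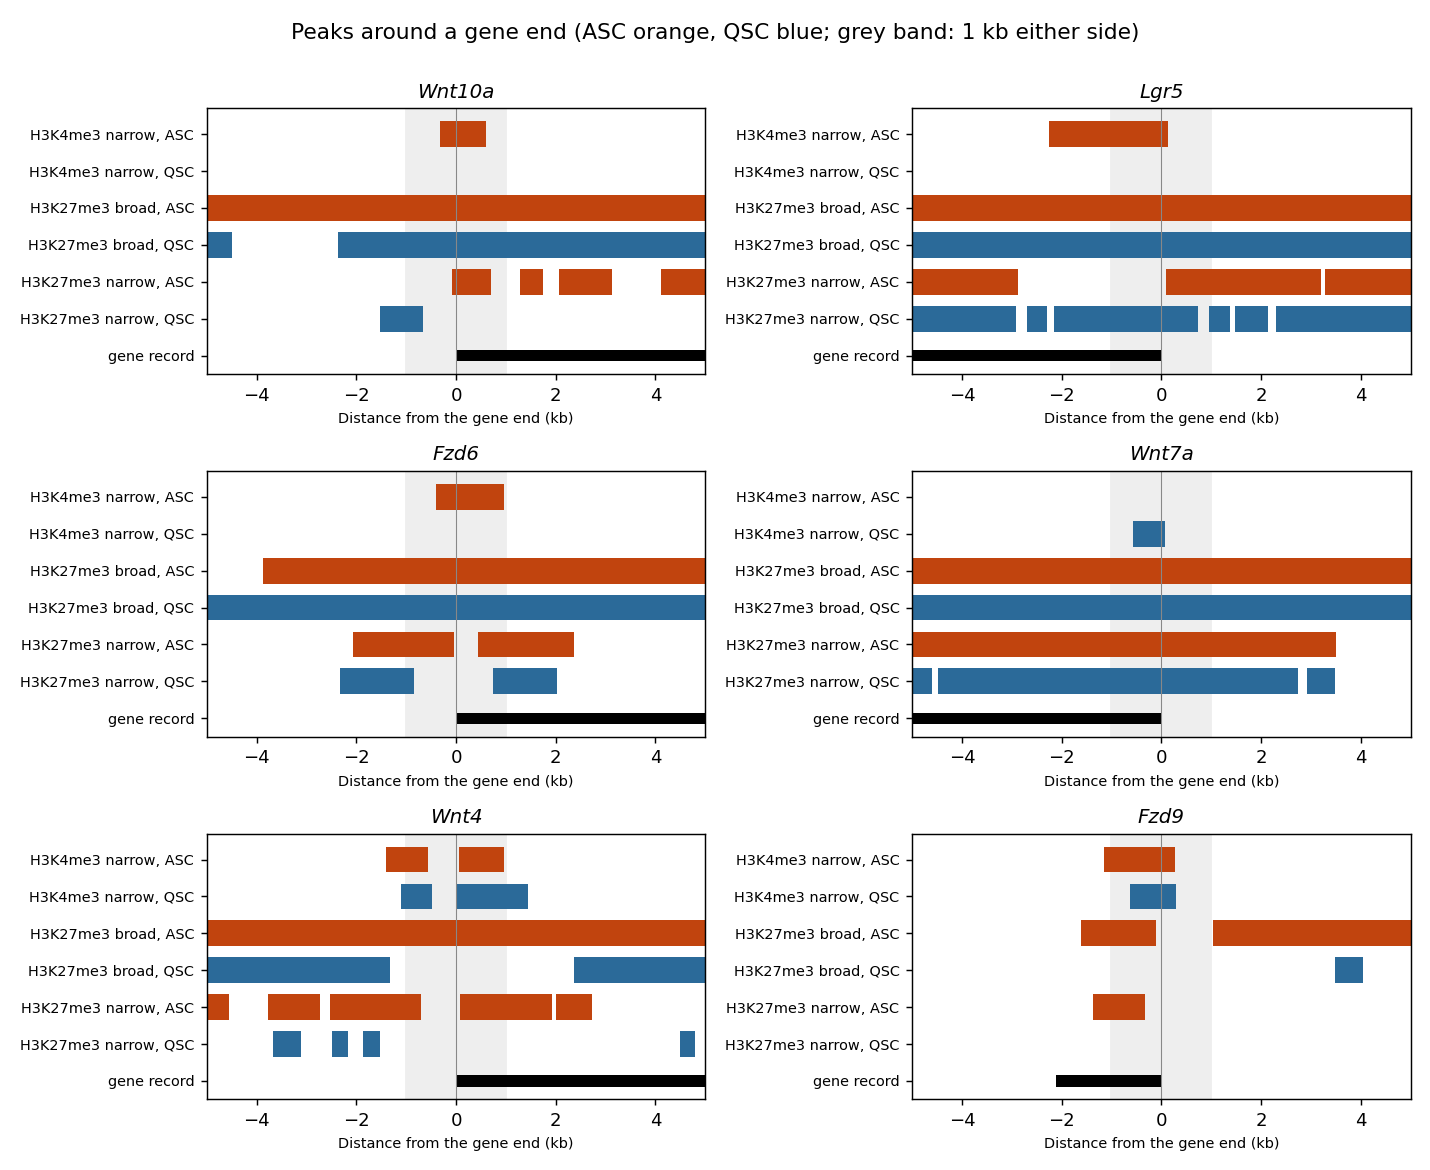
Peaks around a gene end in 6 genes (horizontal axis: distance from the end in kb; each row a list, with ASC orange above QSC blue; black bar: gene record; grey band: 1 kb either side). H3K4me3 peaks at Wnt10a, Lgr5 and Fzd6 appear in the ASC row and at Wnt7a in the QSC row, and the broad H3K27me3 peak of 19080 bp crosses the Wnt4 start in ASC.

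Of the 13 receptors, 5 were called for H3K4me3 alone in ASC and 8 in QSC, and 5 and 1 for both marks at the same end. Fzd1, Fzd4, Fzd5, Fzd7 and Lgr4 had H3K4me3 and no broad H3K27me3 call within 1 kb in either state. Fzd7, the receptor through which Wnt7a acts on satellite cells, had a single H3K4me3 peak of 5316 bp in ASC (fold 23.8) and 3663 bp in QSC (fold 16.5), and no H3K27me3 peak of either kind within 5 kb of its ends in either state; the nearest broad peaks lay 19160 bp away in ASC and 6242 bp in QSC. Fzd4, known as the receptor for Norrin in retinal vessels, had the longest receptor domain, 6116 bp in ASC and 5047 bp in QSC, which also covered an end of its neighbour Tmem135. The promoter of Fzd7, printed as an example of H3K4me3 without H3K27me3 and chosen after its values were seen, is chr1:59481897-59482196 on the plus strand, with 300 of 300 bases in an H3K4me3 peak in both states and 0 in H3K27me3 peaks.
Fzd7: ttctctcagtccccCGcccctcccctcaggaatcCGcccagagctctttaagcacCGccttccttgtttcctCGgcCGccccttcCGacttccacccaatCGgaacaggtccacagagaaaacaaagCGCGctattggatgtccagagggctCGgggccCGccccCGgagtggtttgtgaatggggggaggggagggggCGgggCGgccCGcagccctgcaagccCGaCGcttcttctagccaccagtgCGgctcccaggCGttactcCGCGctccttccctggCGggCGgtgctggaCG

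Fzd6 and Lgr5 were the receptors with H3K4me3 in ASC only. Fzd6, a receptor of the planar polarity branch that orients hairs in mice, had an ASC peak of 1361 bp (chr15:39005744-39007104, fold 9.75, −log10 q 35.4), while the nearest QSC narrow peak lay 73755 bp from a gene end. Lgr5, an R-spondin receptor known as a marker of intestinal stem cells, had an ASC peak of 2392 bp (chr10:115585527-115587918, fold 7.22, −log10 q 21.3), and the nearest QSC narrow peak lay 63175 bp away. The QSC broad list held a peak at both ends concerned, of 1203 bp (fold 2.31) at Fzd6 and 2296 bp (fold 2.22) at Lgr5, so neither was called in a single state by the broad lists. Both genes lay under broad H3K27me3 in both states. At Lgr5 the broad peaks were 92540 bp long in ASC and 91634 bp in QSC, and the narrow H3K27me3 peaks covered 1.92% of the H3K4me3 domain in ASC, while a QSC narrow peak of 2888 bp lay over the same end. At Fzd6, narrow H3K27me3 peaks lay on both sides of the end in both states and covered 1528 bp of the window in ASC and 410 bp in QSC.

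Broad H3K27me3 was called in ASC only at Fzd3, Fzd8 and Fzd9. Fzd9 had the clearest of these calls, with broad peaks over 895 bp of its better-covered window in ASC and 0 bp in QSC, and narrow peaks over 682 and 0 bp. Its ASC broad peak was 1511 bp long (fold 2.78, −log10 q 2.61), and the nearest QSC broad peak lay 3488 bp away. At Fzd3, a receptor needed for axon guidance, broad peaks reached 952 bp of the window in ASC and 347 bp in QSC, and peaks flanked the end in both states. Fzd8 had 1168 bp in ASC and 0 bp in QSC, but the ASC peak was weak (−log10 q 0.182) and its call was at the opposite end of the record from the H3K4me3 call. The record is short (3346 bp), and broad H3K27me3 peaks covered 13.7% of the Fzd8 H3K4me3 domain in ASC. The Fzd9 promoter, chr5:135250998-135251297 on the minus strand, lay wholly in H3K4me3 peaks in both states, with the ASC H3K27me3 peak downstream of it inside the gene (0 of 300 bases in either state). It is printed because the gene was called for both marks in ASC and for H3K4me3 alone in QSC.
Fzd9: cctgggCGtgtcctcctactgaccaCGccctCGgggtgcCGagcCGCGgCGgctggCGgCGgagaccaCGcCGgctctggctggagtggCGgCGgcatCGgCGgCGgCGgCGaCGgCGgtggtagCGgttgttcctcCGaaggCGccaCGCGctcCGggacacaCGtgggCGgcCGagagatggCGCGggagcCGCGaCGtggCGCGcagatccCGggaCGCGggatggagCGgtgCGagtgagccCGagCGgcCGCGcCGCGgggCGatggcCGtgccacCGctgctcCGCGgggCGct

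Of the remaining receptors, Fzd10 had both marks at the same end in both states, with an H3K4me3 domain of 3437 bp in ASC and 3579 bp in QSC. Fzd2 had H3K4me3 at its lower-coordinate end and broad H3K27me3 calls at the other end in both states. Broad H3K27me3 peaks still covered 39.5% of its H3K4me3 domain in ASC and 8.42% in QSC. Lgr6, an R-spondin receptor of skin and other epithelia, was the receptor without H3K4me3 at 1 kb in either state. Narrow H3K27me3 peaks covered 81.4% of its record in ASC and 20.7% in QSC, and 1697 and 28 bp of its better window. Broad H3K27me3 peaks covered 97.5% of the Lgr6 record in ASC and 93.3% in QSC. A QSC H3K4me3 peak of 518 bp (fold 3.87) lay 4330 bp from its nearest end. Narrow H3K27me3 was called at 5 of 13 receptors in ASC and 2 in QSC, the ASC-only genes being Fzd6, Fzd9 and Lgr6.

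The secreted modulators resembled the ligands. Rspo1, Rspo2, Rspo4, Sfrp5, Dkk1 and Dkk3 had a broad H3K27me3 call and no H3K4me3 narrow call in both states. Rspo3, Sfrp1, Sfrp2 and Dkk2 were called for both marks in both states. In QSC the broad H3K27me3 peaks at the starts of Sfrp2 and Dkk2 were weak, with a −log10 q of 0.662 and 0.634. Narrow H3K27me3 peaks covered 0 bp of the windows of these 2 genes in QSC. Rspo1, an R-spondin known in mice to act on muscle differentiation, lay in a broad peak of 65441 bp in ASC and 66598 bp in QSC, and every base within 5 kb of its ends was covered by broad peaks in both states (20002 bp). Narrow peaks covered 18581 bp of that span in ASC and 11549 bp in QSC. Rspo4, an R-spondin of nail development, had broad peaks that joined over gaps of up to 3 kb into domains of 159281 bp in ASC and 106319 bp in QSC. At Rspo2, an R-spondin of limb and neuromuscular development, 65.4% of the record was covered by broad peaks in ASC and 13.2% in QSC, and at Rspo3 82.8% and 34.8%. The Rspo1 promoter, chr4:124986180-124986479 on the plus strand, is printed as an example of an H3K27me3 call without an H3K4me3 narrow call and was chosen after its values were seen. Weak broad-list H3K4me3 peaks did cover it, of 1698 bp (fold 1.90) in ASC and 1205 bp (fold 2.34) in QSC. Of its bases, 300 lay in narrow H3K27me3 peaks in ASC and 224 in QSC.
Rspo1: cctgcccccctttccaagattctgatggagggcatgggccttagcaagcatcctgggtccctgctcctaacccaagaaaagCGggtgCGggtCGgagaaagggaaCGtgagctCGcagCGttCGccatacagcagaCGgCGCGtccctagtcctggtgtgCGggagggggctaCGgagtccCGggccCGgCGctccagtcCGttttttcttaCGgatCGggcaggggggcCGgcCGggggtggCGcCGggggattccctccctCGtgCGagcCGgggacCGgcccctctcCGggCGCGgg

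Sfrp4, a secreted Frizzled-related protein, was the modulator with a broad H3K27me3 call in ASC only. The ASC peak was long (5406 bp) but weak, with a fold of 1.63 and a −log10 q of 0.255, and covered 2001 bp of the window against 0 bp in QSC, where the nearest broad peak lay 8047 bp away. H3K4me3 was called there in both states, over 1331 bp in ASC and 1171 bp in QSC. Narrow H3K27me3 peaks were called at 9 of 11 modulators in ASC and 6 in QSC. The 3 called in ASC only were Rspo3, Dkk2 and Dkk3, with 542, 711 and 1197 bp of the better window in ASC and 0 bp in QSC at each. Dkk1, an Lrp co-receptor blocker and a known target of Wnt signalling, had broad peaks over 2001 bp in both states, and the nearest H3K4me3 narrow peak lay 511594 bp away in ASC and 513607 bp in QSC.

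The nuclear and feedback genes differed from each other. Tcf7, a DNA-binding partner of beta-catenin, had H3K4me3 and no H3K27me3 call within 1 kb. Its H3K4me3 domain measured 1523 bp in ASC and 2693 bp in QSC. The ASC domain was a single peak, whereas the QSC domain joined peaks of 1175 bp (fold 8.95) and 1173 bp (fold 4.60). The starts of Tcf7 in the promoter table lay in the 1523 bp peak in ASC and in the 1175 bp peak in QSC. Lef1, another DNA-binding partner of beta-catenin, had both marks at its start in both states, with H3K4me3 over 4045 bp in ASC and 2444 bp in QSC. Axin2, a feedback inhibitor and widely used readout of canonical Wnt signalling, showed a limit of the windows: its RefSeq start lies inside the gene record, out of reach of both windows. At that start the lists held a strong H3K4me3 peak in both states, 3751 bp with a fold of 30.9 in ASC and 2624 bp with a fold of 18.1 in QSC, higher than 86.4% and 90.5% of the peaks in their own lists. The broad H3K27me3 call of Axin2 in ASC only lay at the outer end of the record (860 bp of the window in ASC and 278 bp in QSC). Within 1 kb of the table's start there was no such call in either state. Inside the record, ASC broad H3K27me3 covered 969 bp (chr11:108923082-108924050) and overlapped the ASC H3K4me3 peak, while QSC broad peaks covered 0 bp of the record. The promoter is shown to place the peak: chr11:108920099-108920398 on the plus strand, with 137 bases in H3K4me3 peaks in ASC and 148 in QSC and 0 in H3K27me3; it was chosen after its values were seen.
Axin2: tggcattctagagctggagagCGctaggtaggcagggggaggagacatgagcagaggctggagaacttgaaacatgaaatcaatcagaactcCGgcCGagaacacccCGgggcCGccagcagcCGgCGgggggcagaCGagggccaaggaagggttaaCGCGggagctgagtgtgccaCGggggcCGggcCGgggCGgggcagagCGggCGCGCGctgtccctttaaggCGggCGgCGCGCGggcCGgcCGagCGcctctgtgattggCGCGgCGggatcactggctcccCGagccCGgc

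A call for both marks at an end did not require their peaks to overlap. Both marks were so called at the same gene end at 20 members in ASC and 14 in QSC, against 10.3% and 5.34% of all genes. Of these, 7 were so marked in ASC only (Wnt4, Wnt10a, Fzd3, Fzd6, Fzd9, Lgr5 and Sfrp4; 5.78% of all genes) and Wnt7a in QSC only (0.827%). The 7 differed in their QSC calls: Wnt10a, Fzd6 and Lgr5 were called for H3K27me3 and not for H3K4me3 by narrow peaks, and Wnt4, Fzd3, Fzd9 and Sfrp4 were called for H3K4me3 and not for H3K27me3. A gene without a call could still hold peaks, such as the broad-list H3K4me3 peaks at Fzd6 and Lgr5 and the 347 bp of H3K27me3 at Fzd3 given above. By role, both marks were called at 9 ligands in ASC and 8 in QSC, 5 receptors and 1 receptor, 5 modulators and 4, and Lef1 in each. With narrow H3K27me3 peaks the counts were 16 in ASC and 6 in QSC, against 5.17% and 1.67% of all genes. Peaks in lists from populations of cells do not tell whether both marks lie on the same chromosome copy or in different cells.

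The overlap was also measured inside the H3K4me3 domains, which are narrow peaks joined over gaps of up to 1 kb, the longest at each gene being used. Broad H3K27me3 peaks covered the whole domain at 17 of 29 genes in ASC and 9 of 27 in QSC, and none of it at 5 and 11 genes. Ligand domains were wholly covered at 8 of 10 genes in ASC and 5 of 10 in QSC, modulator domains at 5 of 5 and 3 of 5, and receptor domains at 3 of 12 and 0 of 10. Narrow H3K27me3 peaks covered at least 50% of the domain at 15 genes in ASC and 3 in QSC. At Wnt5a, 84.7% of the domain was so covered in ASC and 0% in QSC. At Wnt7b, a ligand of lung and kidney development, 100% was covered in both states.

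H3K4me3 domains could be measured in both states at 26 members. They were longer in ASC at 18 and shorter at 8, with a median log2 ratio of 0.24 (ASC over QSC), while over all 11425 genes marked in both states the median was 0.55 and 90.7% were longer in ASC. The 9 ligands were split, 4 longer and 5 shorter in ASC, with a median of −0.03. Wnt11 had the greatest ratio, 1.55, from 4994 bp in ASC and 1709 bp in QSC; its ASC domain joined peaks of 3066 and 1117 bp, whereas the QSC peaks of 1709 and 289 bp lay too far apart to be joined. Wnt5b followed with 2249 bp in ASC and 1113 bp in QSC, where the ASC domain also covered an end of the predicted gene Gm52875. Wnt6 had 1258 and 718 bp at the 3′ end of its record, and Lef1 had a ratio of 0.73. Receptors were longer in ASC at 9 of 10 genes, with a median of 0.30, from 0.18 at Fzd5 to 0.63 at Fzd9 (1424 bp in ASC and 921 bp in QSC); Fzd10 was the exception.

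The 5 smallest ratios were those of Tcf7 (−0.82), Wnt5a (−0.18, 3146 bp in ASC and 3566 bp in QSC), Wnt2b (−0.15, 1436 and 1588 bp), Wnt4 (−0.12) and Dkk2 (−0.10, 2575 and 2753 bp). Apart from Tcf7 these domains lay under H3K27me3 in at least 1 state. The Tcf7 ratio rests on joining peaks in QSC: the peak over its starts was longer in ASC (1523 bp) than in QSC (1175 bp). Of the 13 members with both marks in both states, 7 had a longer domain in ASC (53.8%, median log2 ratio 0.15), while of all 987 such genes 82.6% did (median 0.40). Of the 6 members with H3K4me3 and no broad H3K27me3 call in both states, 5 were longer in ASC (83.3%, median 0.23), against 93.1% of 8871 such genes (median 0.58). These shares are descriptions of pooled lists, with no test of the difference.

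**Figure D3:**
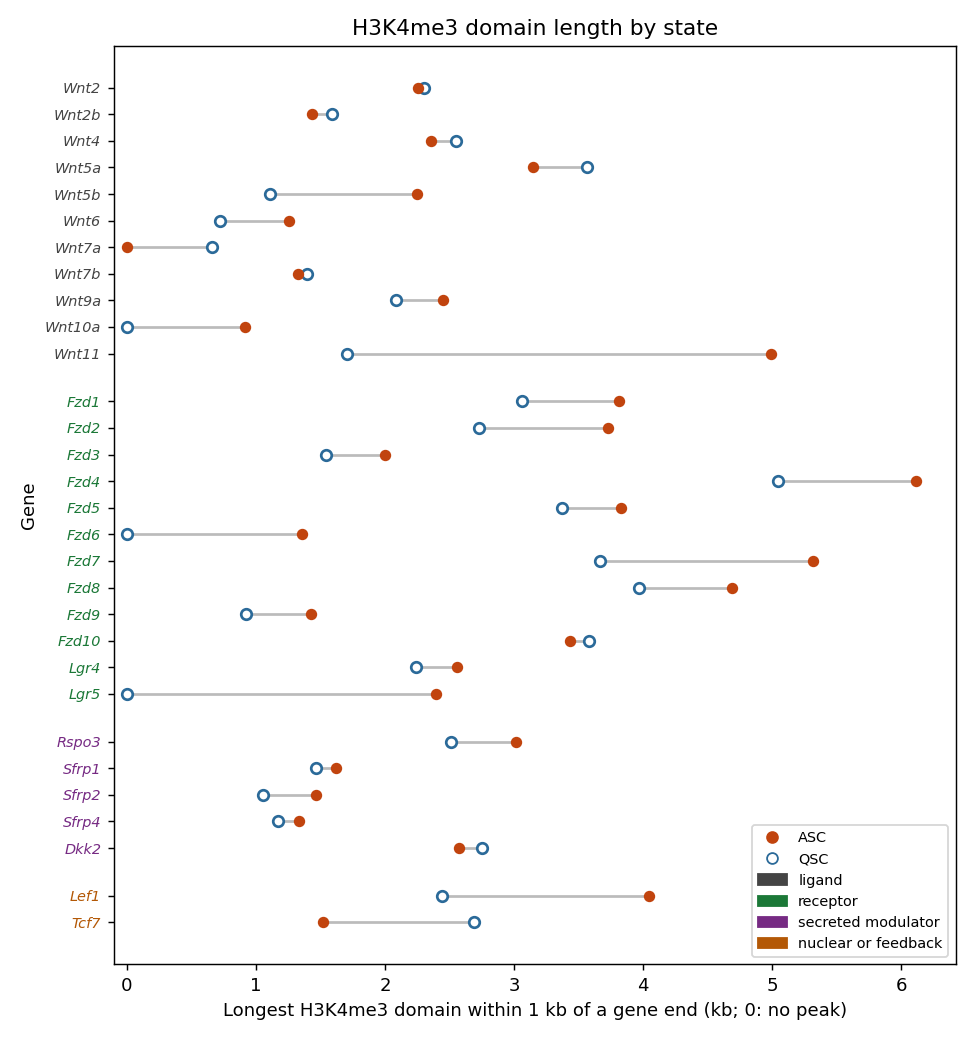
Length in kb of the longest H3K4me3 domain within 1 kb of a gene end (horizontal axis) for the 30 members with a call in either state (rows, grouped by role); filled orange points are ASC, open blue circles QSC, and 0 means no peak. Receptor points lie to the right in ASC at 9 of the 10 genes marked in both states, while the ligands go both ways, with Wnt11 at 4994 bp in ASC and 1709 bp in QSC.

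H3K27me3 cover was then measured as the bases within 5 kb of the gene ends that lay in peaks, at most 20002 bp for a gene. Broad peaks covered a median of 12197 bp in ASC and 11060.5 bp in QSC over the 46 members, with a median difference (ASC minus QSC) of 835.5 bp; 27 genes had more in ASC, 14 more in QSC, and 5 were equal. The median difference over all genes was 0 bp, and 7434 of them were equal. Over the 8309 genes with a broad H3K27me3 call in either state it was 815 bp, near that of the members. Of those genes, 5097 had more in ASC and 2714 more in QSC. Narrow peaks covered a median of 6418 bp in ASC and 2637 bp in QSC, with 34 genes higher in ASC and 2 in QSC (Lgr5 and Lef1), and a median difference of 1653 bp. The narrow ASC list covers more of the genome than the narrow QSC list, and over all genes 6040 had more narrow cover in ASC and 1587 in QSC. Of the 8309 genes with a broad call in either state, 4829 had more narrow cover in ASC and 960 more in QSC. Their median difference was 505 bp.

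By role, 18 of 19 ligands had more narrow H3K27me3 cover in ASC and 0 had less, Wnt8a having none in either state. The ligand medians were 9249 bp in ASC and 6798 bp in QSC. Wnt10b, a ligand known in mice to restrain fat formation by muscle precursors, had 13877 and 6919 bp, and Wnt6 had 5666 and 0 bp. Of the modulators, 10 of 11 had more in ASC and 0 less, with medians of 9914 and 5288 bp. Among the receptors, 6 of 13 had more, 1 had less and 6 had none in either state, with medians of 1046 and 0 bp. Lgr5 was the receptor with less, at 8032 bp in ASC and 9438 bp in QSC. By broad peaks the receptors were evenly divided, 6 with more cover in ASC and 6 with more in QSC; Fzd1 had 0 and 3305 bp, and Fzd9 had 5481 and 556 bp.

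**Figure D4:**
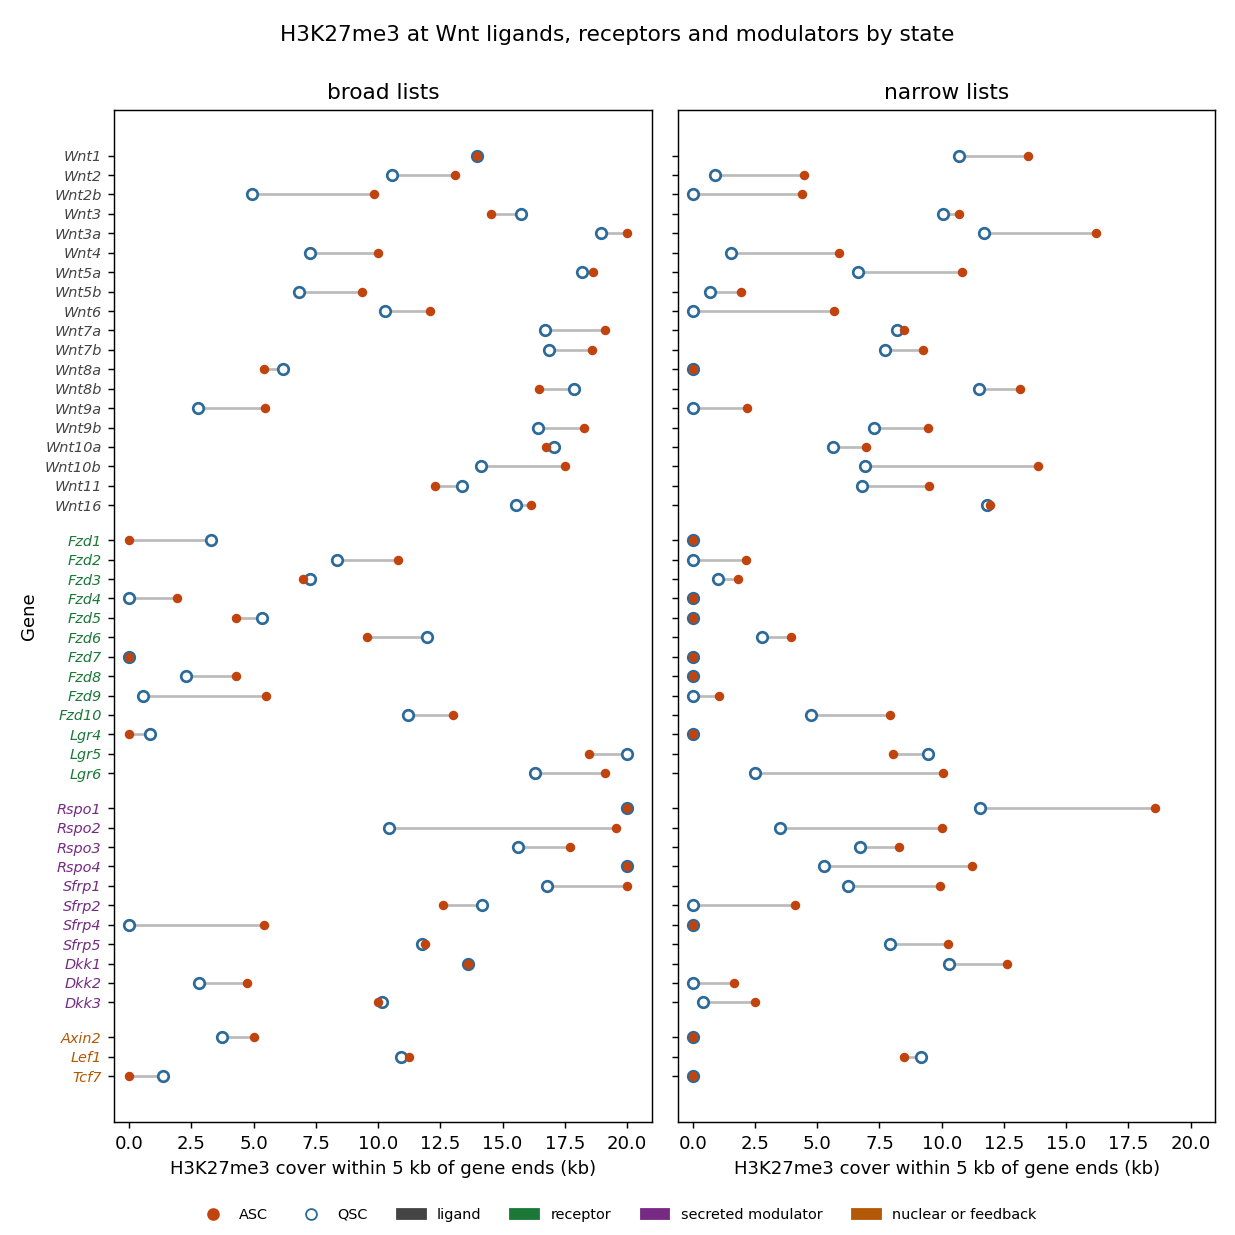
Bases in kb within 5 kb of the gene ends that lay in H3K27me3 peaks (horizontal axes; broad lists left, narrow lists right) for the 46 genes (rows, grouped by role); filled orange points are ASC and open blue circles QSC. In the narrow lists 34 genes lie further right in ASC and 2 in QSC, and Fzd1, Fzd4, Fzd5, Fzd7, Fzd8 and Lgr4 sit at 0 in both.

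The promoters of 32 members were found in the RefSeq GRCm38.p6 table. As groups, those under H3K27me3 had higher CpG medians than all genes with the same calls. The ratio of observed to expected CpG in the 300 bases around the start (the highest over a gene's starts) had a median of 0.787 over the 32 members and 0.610 over 17492 genes. The 14 members with H3K27me3 and no H3K4me3 in ASC had a median of 0.749, from 0.327 at Dkk1 to 0.970 at Wnt7a, while 3733 genes with those calls in ASC had a median of 0.286. The 11 members with both marks in ASC had a median of 0.903, against 0.741 for 1695 such genes. They ranged from 0.499 at Dkk2 to 1.18 at Fzd9, and Dkk2, Lef1 and Sfrp2 lay under 0.741. The 7 with H3K4me3 alone had 0.810, against 0.815 for 7739 genes. These are descriptions, with no test. Axin2 counts among the 14 by its calls, although its start carried H3K4me3.

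**Figure D5:**
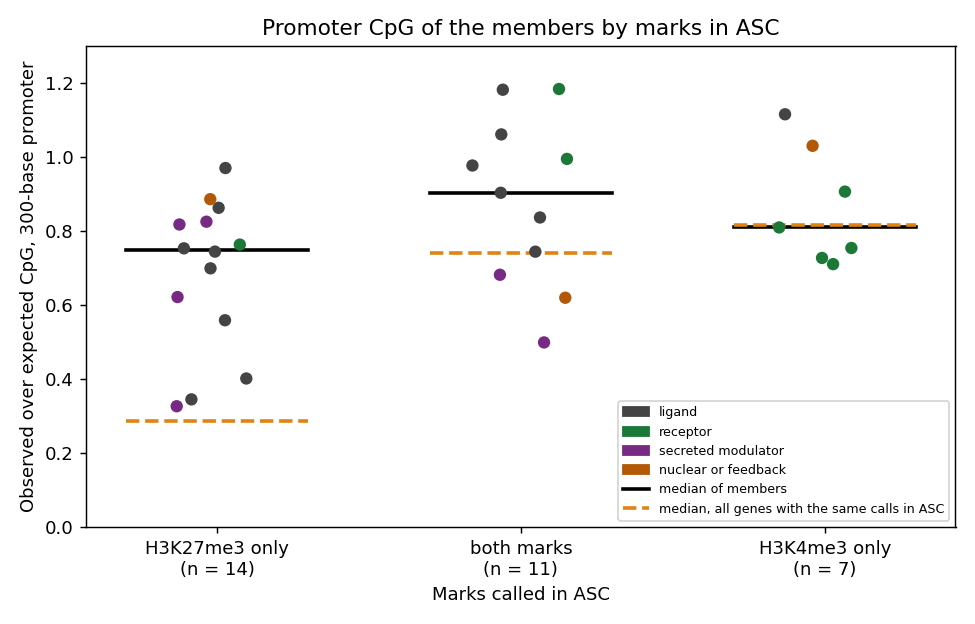
Observed over expected CpG (vertical axis, a ratio) of the 300-base promoter of 32 members, by the marks called in ASC (horizontal axis) and coloured by role; black lines are medians of the members and dashed lines medians of all genes with the same calls in ASC. Members with H3K27me3 only lie around 0.749, above the dashed line at 0.286, and those with H3K4me3 only lie around 0.810, close to the dashed line at 0.815.

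The shares of members with the motifs searched lay near those of all genes. The sequences CTTTGAT and CTTTGAA, bound by Tcf and Lef proteins, were searched on both strands and occurred in the promoters of Dkk1, Wnt5b and Wnt11, 3 of 32 members (9.38%), and in 8.78% of all 17492 genes. The E-box CAGCTG, its own reverse complement and a sequence bound by myogenic factors, occurred in 5 of 32 (15.6%) and in 17.4% of all genes. Neither motif occurred in the 6 promoters printed above. These are matches of letters in a short window and say nothing of binding.

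Other genes of the pathway mostly carried H3K4me3. A further 56 Wnt pathway genes took in Lrp co-receptors, the destruction complex and beta-catenin cofactors. H3K4me3 was called at 51 of them in ASC (91.1%) and 48 in QSC (85.7%), against 55.7% and 53% of all genes. Called in ASC only were Wif1 and Sostdc1 (secreted antagonists), Nkd2 (which acts on Dishevelled) and Celsr1 (planar polarity). Sost, another secreted antagonist, was called in QSC only. These were 4 and 1 of 56, against 3.54% and 0.777% of all genes. Broad H3K27me3 was called at 22 in ASC (39.3%) and 18 in QSC (32.1%), near the 34.3% and 30.5% of all genes. Porcn (which adds the lipid to Wnts), Pygo1, Apcdd1, Vangl1, Celsr2 and Tnfrsf19 were called in ASC only, 6 of 56 against 7.5% of all genes. Dkk4 and Csnk1a1 were called in QSC only, 2 of 56 against 3.68%. Narrow H3K27me3 was called at 12 in ASC (21.4%) and 9 in QSC (16.1%), against 15.2% and 9.38% of all genes. Notum, Rnf43, Wif1, Tle2 and Nkd2 were called in ASC only, 5 of 56 against 6.75% of all genes. Frzb and Sostdc1 were called in QSC only, 2 of 56 against 0.886%. Both marks met at 18 in ASC and 10 in QSC, against 10.3% and 5.34% of all genes.

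Ligands of other secreted families were counted in the same way. H3K27me3 broad peaks were called at 16 of 22 FGF ligands in ASC and 15 in QSC, and at 19 of 24 BMP and GDF ligands in ASC and 14 in QSC, beside the 18 of 19 Wnt ligands in each state. H3K4me3 was called at 10 FGF ligands in ASC and 8 in QSC, and at 11 and 10 BMP and GDF ligands. Both marks met at 8 FGF ligands in ASC and 4 in QSC, and at 7 and 1 BMP and GDF ligands. In the Notch pathway, 14 of 16 genes had H3K4me3 in each state and 5 and 4 had broad H3K27me3. Over all genes the shares in ASC and QSC were 34.3% and 30.5% for broad H3K27me3 and 55.7% and 53% for H3K4me3. For both marks they were 10.3% and 5.34%. The differences between these families were not tested.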

How the data were processed

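The authors deposited 8 MACS2 peak lists. Per the submitters' processing notes, the build was mm10 and the tools included MACS2 2.1.1 for peaks, Bowtie2 2.3.2, Trimmomatic 0.36, SAMtools 1.3, Picard 2.9.2, bedtools 2.26.0 and bcl2fastq 2.19; no settings are given there. Per the labels' protocols, antibody-bound DNA was tagmented (ChIPmentation). Both replicates of a group name the same lists, so each was taken as pooled. In the deposited lists, each peak carries its fold enrichment, a linear ratio, and its p-value and q-value written as −log10; the authors' fold was used only to describe or rank peaks within a list. Peak numbers show that the lists hold 62.0% of the H3K4me3 narrow peaks first called in ASC and 63.2% in QSC, and 30.4% and 24.6% of the H3K27me3 narrow peaks.

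From these lists, peaks were matched to both ends of 21887 RefSeq GRCm38.p6 gene records, which share coordinates with mm10, by the rules given above, with Python 3.11.15, NumPy 2.4.6 and pandas 2.3.3; the steps were tested on simulated data. A shared end counts for each gene there. The 46 members and the other gene lists were chosen with earlier results of these data known. Members described in full were those whose call differed between states, those with both marks at an end, and the 5 largest and 5 smallest length ratios, with up to 4 further examples a group; other pathway genes are named only where called in a single state. Promoters were printed for genes with H3K4me3, then both marks, in a single state; this named 8 genes, 3 of them in the promoter table, and 3 more were chosen after their values were seen. Read depth is unknown from peak lists, so no interval is given. No replicate could be left out. Alternatives were thresholds on q and fold, windows of 5 kb, gene starts, other overlaps, the other kind of list, and lists equal in number or covered bases.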

Additional observations from a re-analysis of the deposited data

How the results depend on the processing

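No paired analysis was possible because the replicates of each group share 1 pooled list. The median log2 length ratio stayed between 0.18 and 0.30 under each alternative. The genes behind it changed, since with equal covered bases only the 8 members still called in ASC could be measured. Counts of genes called in a single state were small and moved readily. With equal covered bases, the shares over all genes were not computed. For H3K4me3, the ASC-only count of 3 became 0 with equal covered bases, and 0 at annotated starts or at transcript starts, since Wnt10a, Fzd6 and Lgr5 were not among the 32 genes used there; the QSC-only count of 1 became 2 with windows of 5 kb, 4 with broad lists and 19 with equal covered bases. For broad H3K27me3, the ASC-only count of 6 became 10 with a −log10 q of at least 1.3, 2 at 5 kb, 3 at annotated starts and 2 at transcript starts, and the QSC-only count of 1 became 3 at 5 kb and 0 with the q limit, with overlaps of 1 or 1000 bp and at transcript starts. For narrow H3K27me3, the ASC-only count of 11 became 7 at annotated starts and otherwise stayed between 8 and 11, and the QSC-only count of 0 became 1 with an overlap of 1000 bp and 1 with equal covered bases. Both marks in ASC, 20 genes, became 10 at annotated starts and 11 at transcript starts; in QSC, 14 became 6 with narrow H3K27me3 lists, 26 at 5 kb, 9 at annotated starts and 8 with the q limit. The median cover difference of 835.5 bp became 1653 with narrow lists, 0 with windows of 1 kb, 355 with the q limit and 251.5 with equal covered bases. Starts were known for 32 of the 46 genes, so those counts have a smaller base. Over these 32, both-end windows gave H3K4me3 at 18 genes in ASC and 19 in QSC, and annotated starts 17 and 18. Over the same 32, the ASC-only counts were 3 by both-end windows and 3 by annotated starts for broad H3K27me3. For narrow H3K27me3 they were 7 and 7. Both marks were called by both-end windows at 11 of the 32 in ASC and 10 in QSC, beside 10 and 9 at annotated starts. Transcript starts were added after seeing the data. Causes of these shifts were not tested beyond the smaller base named here.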
